A study of Mus musculus with 6 samples.

Results

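The complement, coagulation and fibrinolysis proteins that the liver makes and secretes were followed as RNA in *KRAP*-/- and wild-type liver. The list named 44 genes by symbol, and every probe set (a group of probes for 1 transcript on the array) annotated to exactly 1 of these symbols was taken. This gave 60 of the 45037 probe sets without controls and 42 of the 18193 genes that a probe set names. C1s was matched through its current symbol C1s1. C3 and Cpb2 are not analysed here. All 60 probe sets passed the filter on dim signals, and 31 of the 42 genes had a single probe set.

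The study compared livers of *KRAP*-/- mice, which lack exons 11 to 16 of the gene for an actin-associated protein in every tissue and carry a neomycin cassette in their place, with livers of wild-type littermates. There were 3 mice per genotype in 3 littermate pairs, 1 array per mouse, all 32 weeks old, fed normal chow, and from a line backcrossed 6 times to C57BL6/J. The targeting vector was built from 129/SV DNA, so DNA beside the gene may still differ from C57BL6/J in the *KRAP*-/- mice, and this cannot be told apart from the deletion itself. The labels do not give the sex of the mice.

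Complement is a chain of plasma proteases. The classical and lectin pathways start it from antibody or from microbial sugars, the alternative pathway amplifies it, and the terminal components then assemble into a pore in the target membrane. Coagulation is a parallel chain that ends with thrombin turning fibrinogen into fibrin, held in check by inhibitors and undone by plasmin. Hepatocytes are the main source of most of these proteins, while properdin, ficolin A and C1q come largely from macrophages and other myeloid cells.

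Values are signal divided by the median signal of the array, called array medians below. They set a gene against itself and not against another gene, since probe sets differ in brightness. The median signal was 20.2 to 23.4 on the *KRAP*-/- arrays and 19.1 to 22.6 on the wild-type arrays, and the 3′ to 5′ ratio of beta-actin was 2.28 to 2.32 and 2.01 to 2.65. The 6 hepatocyte markers (Alb, Ttr, Apoa1, Cps1, Tat and Hnf4a) were bright on every array, with a summed signal of 2875 to 3316 array medians in *KRAP*-/- and 3024 to 3091 in wild-type liver. The only probe set named for *KRAP* itself, now Itprid2, read 20.0 to 21.6 and 22.3 to 24.5. Whether this probe set lies in the deleted exons is not given in the sources used here, so it checks nothing.

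Most members were bright. The mean signal was at least 100 array medians for 26 of 42 genes and at least 500 for 6, namely Kng1, Fga, Fgb, Fgg, Serpinc1 and Plg, and 11 genes lay among the brightest 1% of the probe sets tested. Whether signals this high still rise in proportion to RNA was not tested.

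Of the 42 genes at their brightest probe set, 1 was lower in *KRAP*-/- liver, none was higher and 41 did not pass the test (limma, with littermate pairs as blocks and adjusted p under 0.05 over all probe sets). At an unadjusted p under 0.05 there were 11 lower and 1 higher, where all genes gave 11.8% lower and 3.93% higher, and the 11 became 5 with the values as deposited. Over all 13217 genes the test called 1.31% lower, 0.333% higher and 1.64% in either direction, so 1 of 42 called is near the background. Over probe sets 1 of 60 was called lower, against 0.978% of all tested, and none higher, against 0.431%. No member probe set was at least 1.5-fold higher or lower in all 3 pairs, against 1.12% and 1.38% of all probe sets tested, or 2.3% and 2.88% with dim ones included. The median log2 fold change of the members was −0.08, and that of all genes tested was also −0.08. Among the members 10 had every *KRAP*-/- array below every wild-type array (15.2% of all genes) and 1, F5, had every *KRAP*-/- array above (5.57% of all genes). F5 and Proz were the 2 members higher in all 3 pairs, against 11.6% of all genes.

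The 20 complement genes had a median log2 fold change of −0.16, with 19 below 0, where 62.1% of all genes were, and 14 lower in all 3 pairs, where 26.9% of all genes were. The 22 genes of coagulation and fibrinolysis had a median of −0.03, with 13 below 0, a share near that of all genes, and 5 lower in all 3 pairs. Other scalings moved these counts: with division by the 75th percentile 15 and 8 were below 0, against 53.4% of all genes. The complement median was then −0.11 and the coagulation median 0.03. This scaling shifts every member by the same amount, so it cannot change the gap between these medians. Without pair 2 the coagulation median was 0.01. The difference between complement and coagulation was not tested.

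**Figure D1:**
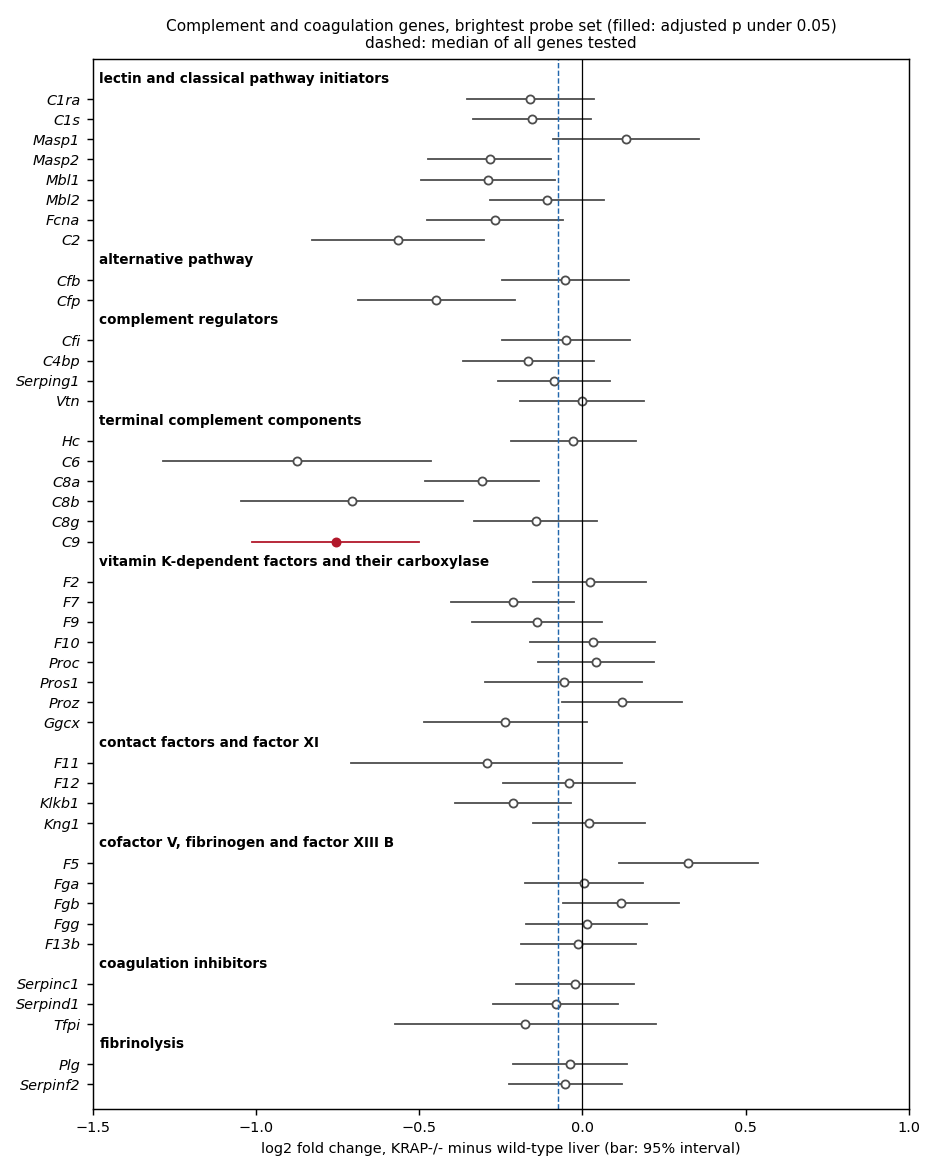
Difference of *KRAP*-/- from wild-type liver as log2 fold change (x axis) for the 42 genes at the brightest probe set, grouped by cascade step, with bars for the 95% interval of the fit, filled where the adjusted p was under 0.05 and a dashed line at the median of all genes tested. C9 at −0.76 is the only filled point, C6, C8b and C2 lie to the left of −0.5 and F5 lies farthest to the right at 0.32.

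The terminal components make the membrane attack complex: C5 (gene Hc) is cleaved to start it, C6 binds next, C8 is built from the chains C8a, C8b and C8g, and C9 forms the ring of the pore. Of these 6 genes C9 fell and 5 did not pass, and all 6 had a log2 fold change below 0, with a median of −0.51.

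C9 read 82.7, 91.8 and 82.3 array medians in the *KRAP*-/- mice of pairs 1, 2 and 3, and 130.4, 198 and 117 in their littermates. Every *KRAP*-/- mouse was below every wild-type mouse, and the highest wild-type value came from pair 2. The means were 85.6 ± 5.37 and 148 ± 43.3 (SD, n = 3 each). On the log2 scale C9 changed by −0.76 with a standard error of 0.11 (limma adjusted p = 0.015), to 0.592 of the wild-type level. The difference shrank but stayed when the pair of the highest wild-type mouse was left out. Without pair 2 the log2 fold change was −0.58 (adjusted p = 0.014), and without pair 1 and 3 it was −0.81 (adjusted p = 0.0030) and −0.88 (adjusted p = 0.0012). A fit without 1 pair holds little of the spread of C9 itself. These p-values therefore lean on the variation of probe sets of like brightness. C9 did not pass without the pair as a block (adjusted p = 0.055), without the intensity trend of limma (adjusted p = 0.42) or when dim probe sets were kept (adjusted p = 0.40).

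C6 was dim, with 4.819, 4.496 and 5.195 array medians in *KRAP*-/- liver and 8.157, 11.91 and 7.145 in wild-type liver. The genotypes did not overlap, and again the mouse of pair 2 was the highest of the wild-type mice. The log2 fold change was −0.87 with a standard error of 0.18 (adjusted p = 0.057), so that C6 had the largest difference of all members but missed the threshold. It was −0.61 (adjusted p = 0.13) without pair 2, −0.93 (adjusted p = 0.049) without pair 1, −1.08 (adjusted p = 0.0063) without pair 3, and had an adjusted p of 0.048 without the pair as a block.

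C8b, the chain by which C8 docks to the growing complex, read 26.2, 24.2 and 31.0 array medians against 43.0, 54.1 and 36.7. No values overlapped between the genotypes, and pair 3 had the smallest gap. It differed by −0.71 on the log2 scale with a standard error of 0.15 (adjusted p = 0.063). It passed in 2 of 15 alternative ways of processing: without the pair as a block (adjusted p = 0.044) and without pair 3, with −0.94 (adjusted p = 0.0013). Over the fits that left out 1 pair the log2 fold change of C8b ran from −0.94 to −0.48.

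C8a, which inserts into the membrane, read 98.7, 117 and 95.4 against 119, 152 and 116, lower in each pair but with overlap between the genotypes. Its log2 fold change was −0.31 (adjusted p = 0.105), with a 95% interval of −0.48 to −0.13. C8g, a lipocalin chain, read 262, 201 and 203 against 269, 249 and 215, a difference of −0.14 (adjusted p = 0.47). Hc read 200.1, 197 and 162 against 188, 194 and 186, a difference of −0.03 (adjusted p = 0.91) with an interval of −0.22 to 0.16. Across the chains of C8 the ratio of *KRAP*-/- to wild-type was 0.613 for C8b, 0.808 for C8a and 0.906 for C8g.

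The spread within wild-type liver was wide for C9, C6, C8b and C8a, but not for these alone. The coefficient of variation over 3 wild-type mice was 29.2% for C9, 27.7% for C6, 19.7% for C8b and 15.5% for C8a, against a median of 5.54% over all 42 members, and in *KRAP*-/- liver it was 6.28%, 7.24%, 12.9% and 11.3% against 7.16%. F11 (20.9%) and C2 (19.4%) also spread widely among the wild-type mice, while the terminal gene Hc did not (2.06%). The wild-type mouse of pair 2 was the highest of its group for 5 of the 6 terminal genes and for 20 of all 42 members. C8a and C8b are neighbours on the chromosome with no protein-coding gene between them, and C6 and C9 lie on the same chromosome with 8 between them.

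**Figure D2:**
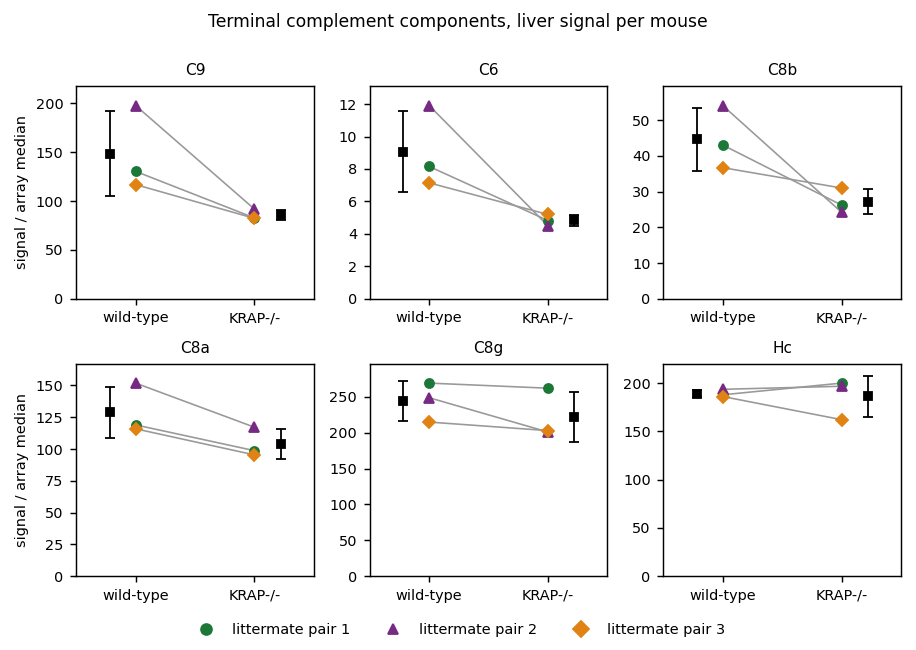
Mouse by mouse signal in array medians (linear axes from 0) for the 6 terminal components by genotype. Each point is 1 mouse, a line links the littermates of a pair, and the square and its bar mark mean ± SD (n = 3); C9 runs from 117 to 198 in wild-type and from 82.3 to 91.8 in *KRAP*-/- liver, while Hc overlaps.

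The 250 bases before the transcription start are shown for the 4 terminal genes with the largest differences, and for F5, the member whose difference ran the other way. They are RefSeq sequences of GRCm38.p6, written in the direction of transcription, and 34 of the 42 members had one. Capitals mark matches on either strand to GTTAAT (the core of an HNF1 site), CAAAGTCCA (HNF4), TTNNGNAA (C/EBP), TTCNNNGAA (STAT) or to GAAA, any 2 bases and GAAA again (the interferon-stimulated response element), 5 patterns bound by factors that act in hepatocytes. No 2 matches overlap in these windows.
C9, chr15:6445096-6445345, + strand: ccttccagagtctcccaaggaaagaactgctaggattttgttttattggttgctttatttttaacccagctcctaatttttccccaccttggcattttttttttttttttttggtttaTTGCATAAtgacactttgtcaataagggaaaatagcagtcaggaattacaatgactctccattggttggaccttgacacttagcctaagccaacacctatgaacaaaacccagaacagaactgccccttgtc
C6, chr15:4726960-4727209, + strand: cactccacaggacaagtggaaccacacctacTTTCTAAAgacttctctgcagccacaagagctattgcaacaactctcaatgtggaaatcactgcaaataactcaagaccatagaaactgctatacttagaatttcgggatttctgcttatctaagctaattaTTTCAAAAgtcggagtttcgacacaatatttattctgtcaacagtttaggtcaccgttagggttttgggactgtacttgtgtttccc
C8a, chr4:104876399-104876648, - strand: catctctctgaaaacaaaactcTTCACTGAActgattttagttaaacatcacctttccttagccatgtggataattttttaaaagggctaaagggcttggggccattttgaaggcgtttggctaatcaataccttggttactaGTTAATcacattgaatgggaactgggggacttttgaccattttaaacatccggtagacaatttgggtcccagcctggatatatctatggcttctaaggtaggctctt
C8b, chr4:104766067-104766316, + strand: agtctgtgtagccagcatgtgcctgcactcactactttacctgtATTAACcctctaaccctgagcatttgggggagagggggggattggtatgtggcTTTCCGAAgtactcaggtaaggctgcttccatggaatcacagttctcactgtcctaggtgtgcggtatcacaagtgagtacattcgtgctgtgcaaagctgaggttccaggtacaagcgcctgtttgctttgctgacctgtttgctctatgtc
F5, chr1:164151585-164151834, + strand: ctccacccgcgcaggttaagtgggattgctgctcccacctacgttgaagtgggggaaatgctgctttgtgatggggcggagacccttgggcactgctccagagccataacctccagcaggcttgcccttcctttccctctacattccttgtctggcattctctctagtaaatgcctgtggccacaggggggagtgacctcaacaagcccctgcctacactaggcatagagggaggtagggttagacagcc

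C9 held 1 C/EBP match, C6 held 2, C8b held 1 beside an HNF1 core, C8a held an HNF1 core and a STAT match, and F5 held none of the 5. So no pattern was shared by the 4 terminal genes. Across the list the HNF1 core was in 11 of 34 promoters (C1ra, C4bp, C8a, C8b, Cfp, F13b, Fga, Fgb, Hc, Proz and Vtn), 32.4% against 6.52% of 27025 genes with a window of this length. The C/EBP pattern was in 47.1% against 36.9% and the STAT pattern in 17.6% against 7.18%. The HNF4 and interferon patterns were in none of the 34, against 0.381% and 3.04% of all. Both are rare, and the HNF4 pattern is 1 exact string, so their absence from 34 promoters says little. These are matches of letters, not sites shown to be bound.

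The classical and lectin pathways are started by C1r and C1s (genes C1ra and C1s), by the mannose-binding lectins Mbl1 and Mbl2 and by ficolin A (Fcna) with the proteases of Masp1 and Masp2, and they meet in C2, the protease of their C3 convertase. None of these 8 genes passed the test, and 7 had a log2 fold change below 0 and were lower in all 3 pairs, with a median of −0.21. The largest difference was at C2, with 19.1, 18.7 and 18.5 array medians in *KRAP*-/- liver and 32.9, 29.3 and 22.2 in wild-type liver.

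At the brightest probe set the *KRAP*-/- values of C2 lay close together, and all were below the wild-type values, which spread more. The difference was −0.57 on the log2 scale with a standard error of 0.12 (adjusted p = 0.057). The dimmer probe sets of C2 had −0.35 (adjusted p = 0.19) with no overlap between the genotypes and −0.40 (adjusted p = 0.19) with overlap. Both carry the suffix _x_at, which marks probes that can bind other transcripts. Pair 3 had the smallest gap: without it the brightest probe set changed by −0.72 (adjusted p = 0.0050), and without pair 1 the value was −0.45 (adjusted p = 0.17). Cfb, factor B, the counterpart of C2 in the alternative pathway and its neighbour on the chromosome, read 159, 148 and 130.1 against 156, 143 and 153, with −0.05 (adjusted p = 0.82).

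Mbl1 read 84.5, 94.9 and 91.9 against 119, 106 and 107, lower in every *KRAP*-/- mouse, with −0.29 (adjusted p = 0.18). Mbl2 was closer to even, with −0.11 (adjusted p = 0.56). The 2 probe sets of Masp2, whose gene makes a protease and a short form without the protease domain, did not run together: the brighter had −0.28 (adjusted p = 0.16) with no overlap between the genotypes, and the dimmer had 0.10 (adjusted p = 0.67). Which form each reads is not given in the sources used here. The 5 probe sets of Masp1 had −0.15 to 0.41, none of which passed. C1ra and C1s had −0.16 and −0.15 (adjusted p = 0.43 and 0.42), and the C1s probe set ends in _s_at and may also read a near-identical copy.

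Properdin (Cfp), which stabilises the alternative C3 convertase, read 9.42, 10.3 and 10.3 array medians in *KRAP*-/- liver and 13.2, 13.8 and 14.0 in wild-type liver. The gap was wider than the spread in either genotype and alike in all 3 pairs, with ratios of 0.716, 0.746 and 0.739. It came to −0.45 with a standard error of 0.11 (adjusted p = 0.088), and a dim second probe set had 0.05 (adjusted p = 0.94). Fcna read 21.38, 21.96 and 23.74 against 24.8, 26.2 and 29.9, with no overlap, and had −0.27 (adjusted p = 0.22).

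The chains of C1q, which recognise antibody and start the classical pathway, are no members of the list but lay the same way. C1qa read 19.6, 18.3 and 20.1 against 24.3, 30.5 and 27.2, with −0.49 (adjusted p = 0.070), and C1qb and C1qc had −0.45 (adjusted p = 0.084) and −0.37 (adjusted p = 0.13) at the brightest probe set. The dimmer probe sets of C1qb had −0.07 and −0.18 (adjusted p = 0.80 and 0.51). C1qa passed without pair 1, with −0.59 (adjusted p = 0.047). Of 6 markers of Kupffer cells and macrophages 1 fell, Clec4f, with 22.5, 24.0 and 22.9 against 31.6, 34.8 and 34.1 (−0.54 on the log2 scale, adjusted p = 0.025), and none rose. The summed signal of the 6 was 138 to 142 array medians in *KRAP*-/- and 156 to 183 in wild-type liver, and the lowest value of any of them was 1.94, for Marco. The part of these cells in the values of Cfp, Fcna and C1q was not tested, and in whole liver fewer cells of a type and less RNA per cell cannot be told apart.

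**Figure D3:**
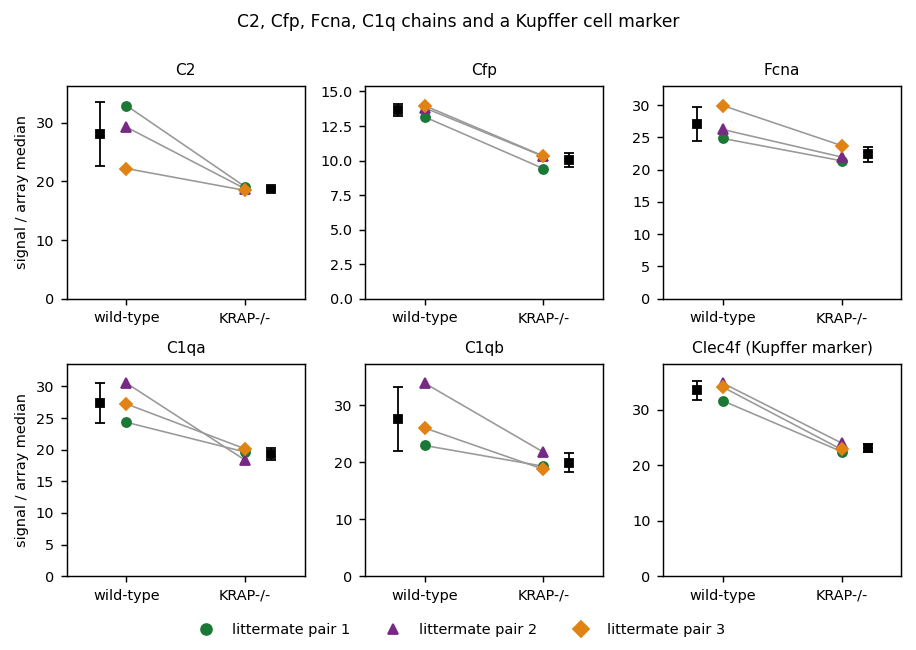
Mouse by mouse signal in array medians (linear axes from 0) for C2, Cfp, Fcna, C1qa, C1qb and the Kupffer cell marker Clec4f by genotype. Each point is 1 mouse, a line links the littermates of a pair, and the square and its bar mark mean ± SD (n = 3). In every panel all 3 *KRAP*-/- mice lie below all wild-type mice, with C2 at 18.5 to 19.1 against 22.2 to 32.9. Of all genes 15.2% lie this way, and of the 6 Kupffer cell and macrophage markers 4 do, while Csf1r and Marco overlap.

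The regulators of complement on the list showed small differences. Of Cfi, the protease that cuts C3b and C4b, its cofactor C4bp, the C1 inhibitor Serping1 and vitronectin (Vtn), which blocks the membrane attack complex, none passed the test, and the median was −0.07. C4bp had the largest, with 187, 169 and 170.5 array medians against 181, 209 and 201, higher in pair 1 and lower in the other pairs (log2 fold change of −0.17, adjusted p = 0.43). Vtn lay at −0.00 (adjusted p = 0.997) with a 95% interval of −0.19 to 0.19, and its dimmer probe set at −0.02.

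In coagulation F5 was the 1 gene with every *KRAP*-/- mouse above every wild-type mouse. It encodes factor V, the cofactor that lets factor X activate prothrombin. Its brighter probe set read 182, 179 and 166 array medians in *KRAP*-/- liver and 125, 163 and 136 in wild-type liver, and its dimmer one read 159.6, 158 and 164 against 119.9, 129.7 and 126. The genotypes did not overlap at either. The log2 fold change was 0.32 with a standard error of 0.09 (adjusted p = 0.15) at the brighter and 0.36 with a standard error of 0.08 (adjusted p = 0.064) at the dimmer, so neither passed. With quantile normalization the dimmer probe set passed, with 0.40 (adjusted p = 0.028). The brighter changed by 0.21 (adjusted p = 0.41) without pair 1, where the gap was widest.

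The fibrinogen chains, the substrate of thrombin, did not pass the test. Fgb read 701, 653 and 603 against 600.4, 595 and 605, a log2 difference of 0.12 (adjusted p = 0.53). Fga and Fgg had 0.00 (adjusted p = 0.99) and 0.01 (adjusted p = 0.96), with 95% intervals of −0.18 to 0.18 and −0.17 to 0.20. F13b, the carrier chain of the factor that cross-links fibrin, had −0.01 (adjusted p = 0.96).

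**Figure D4:**
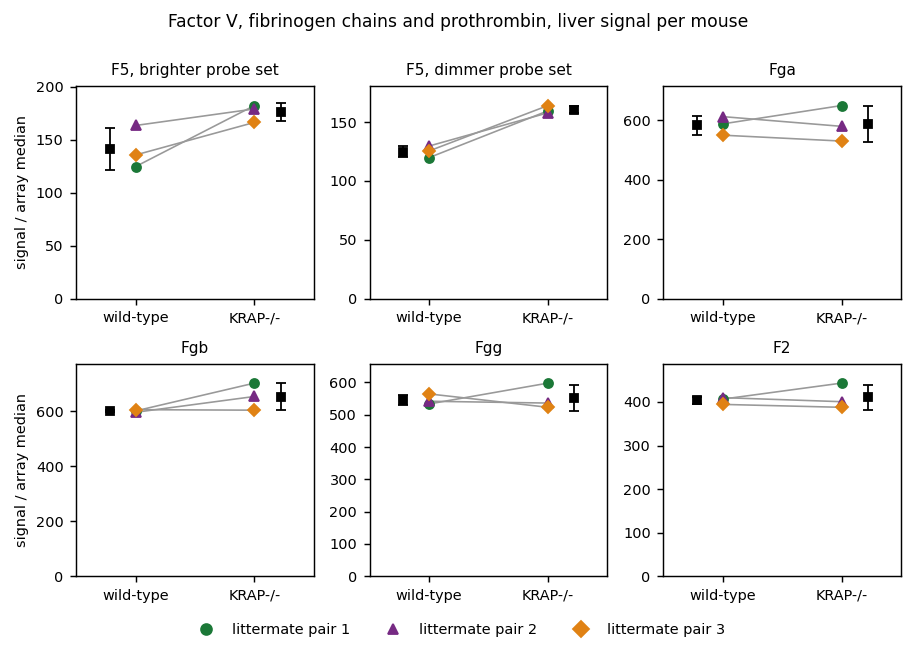
Mouse by mouse signal in array medians (linear axes from 0) for both probe sets of F5, the fibrinogen chains Fga, Fgb and Fgg, and prothrombin (F2) by genotype. Each point is 1 mouse, a line links the littermates of a pair, and the square and its bar mark mean ± SD (n = 3); the genotypes lie apart for F5, with 166 to 182 against 125 to 163 at the brighter probe set, and overlap for the others.

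The vitamin K-dependent proteins need carboxylation by Ggcx to bind membranes. None of the 8 genes of this step passed the test, with 4 above 0 and 4 below and a median of −0.02. Prothrombin (F2) read 443, 401 and 388 array medians against 407, 410.0 and 394, with 0.02 (adjusted p = 0.92) and an interval of −0.15 to 0.20. The largest differences were at Ggcx, with 14.0, 12.63 and 12.99 against 17.8, 13.1 and 16.1 (log2 fold change of −0.24, adjusted p = 0.36), and at F7, the starter of the extrinsic pathway, with 48.1, 41.3 and 37.0 against 54.7, 48.9 and 42.9 (−0.21, adjusted p = 0.27).

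Ggcx and F7 were lower in all 3 pairs, though the genotypes overlapped for both. F7, F10 and Proz are neighbours on the chromosome with no protein-coding gene between them, and they lay at −0.21, 0.03 and 0.12. F9, factor IX, had −0.14 (adjusted p = 0.50), and the anticoagulants Proc and Pros1 had 0.04 (adjusted p = 0.85) and −0.06 (adjusted p = 0.84). The dimmer probe set of Proz had −0.14 (adjusted p = 0.59), against 0.12 at the brighter.

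Among the contact factors, which start the intrinsic pathway, F11 varied most. It read 29.6, 20.3 and 32.1 array medians in *KRAP*-/- liver and 25.8, 39.5 and 34.8 in wild-type liver, higher in pair 1 and lower in the other pairs, so that its log2 fold change of −0.29 had a wide 95% interval of −0.71 to 0.12 (adjusted p = 0.50). The value was 0.04 without pair 2. Klkb1, plasma prekallikrein, read 88.3, 89.4 and 85.5 against 105.2, 105.4 and 94.8 with no overlap (−0.21, adjusted p = 0.26). F12 and Kng1, factor XII and kininogen, had −0.04 and 0.02 (adjusted p = 0.87 and 0.92).

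The inhibitors Serpinc1 (antithrombin), Serpind1 (heparin cofactor II) and Tfpi (tissue factor pathway inhibitor) had −0.02, −0.08 and −0.17, none of which passed. Tfpi, the dimmest member, read 3.29, 2.72 and 2.74 against 3.42, 3.63 and 2.84 (adjusted p = 0.69), and its 3 other probe sets had −0.09 to −0.00. For fibrinolysis, Plg, the precursor of plasmin, had −0.04 (adjusted p = 0.86) and Serpinf2, the inhibitor of plasmin, had −0.05 (adjusted p = 0.80). Serpinf2 read 252, 231 and 225 against 249.9, 254 and 231.

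Of 30 other genes of these pathways 23 had a probe set and 21 were tested. None passed limma in either direction, 5 were lower and 2 higher at an unadjusted p under 0.05 (11.8% and 3.93% of all genes), and the median was −0.18. The largest log2 fold changes were −1.09 for F13a1 and −0.69 for Cd46. F13a1, the catalytic chain of factor XIII, read 0.201, 1.02 and 0.697 array medians against 1.52, 0.775 and 1.17 (adjusted p = 0.46), and Cd46, a membrane regulator of complement, read 0.829, 0.702 and 0.988 against 1.66, 1.11 and 1.32 (adjusted p = 0.38). Their values lay between 0.201 and 1.66 array medians, and whether these are above background was not tested. Cd59a and Cd55, which also regulate complement, lay in opposite directions with no overlap between the genotypes. They had −0.27 and 0.43 at the brightest probe set (adjusted p = 0.26 and 0.28). The dimmer probe sets of Cd55 had −0.37. The bright genes Apoh, Hrg, Clu and Vkorc1, the reductase that recycles vitamin K, had 0.04, 0.08, 0.05 and 0.01. Serpina10, an inhibitor of activated factor X that is also bright, read 134.8, 126.9 and 109.7 against 138.2, 142.6 and 138.3, lower in every *KRAP*-/- mouse, with −0.18 (adjusted p = 0.37).

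Many complement and coagulation proteins rise in the acute phase response of the liver. Of 9 acute phase proteins 1 rose, Orm2, with 32.9, 108 and 41.9 array medians against 18.2, 18.8 and 21.0 (1.46 on the log2 scale, adjusted p = 0.035), none fell, and the median was 0.01. Of the 9, 5 had a log2 fold change above 0 and 4 below. Crp was lower in every *KRAP*-/- mouse, with 183, 175 and 194 against 228, 239 and 206 (−0.29, adjusted p = 0.18). Saa1, an acute phase apolipoprotein, read 28.2, 71.1 and 24.8 against 45.3, 43.9 and 33.5 (adjusted p = 0.81). Orm2 and Saa1 were both highest in the *KRAP*-/- mouse of pair 2. The members C9, C6 and C8b were highest in the wild-type mouse of that pair. Among the *KRAP*-/- mice alone C9 was also highest in pair 2, and C6 and C8b in pair 3. A link between the acute phase proteins and the members was not tested.

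Of 5 endothelial, 5 stellate, 4 bile duct and 1 adipocyte markers and 3 of lymphocytes and neutrophils none passed in either direction. The 4 bile duct markers were all below 0, with a median of −0.52, but were dim. They summed to 3.82 to 5.43 array medians in *KRAP*-/- and 5.16 to 6.35 in wild-type liver. The 3 markers of lymphocytes and neutrophils were also all below 0, with a median of −0.08. The adipocyte marker Adipoq read 0.0318 to 0.253 array medians in *KRAP*-/- and 0.444 to 2.20 in wild-type liver, and the stellate markers summed to 181 to 190 and 154 to 179. That sum rests mostly on Dcn and Reln, at 0.21 and 0.16 (adjusted p = 0.31 and 0.45). Of the 5 stellate markers 3 were below 0, with a median of −0.27, and Lrat was lower in every *KRAP*-/- mouse, at −0.66 (adjusted p = 0.070). The part of these cells in the values of the members was not tested.

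The arrays also differed in ways that ran through many members. The *KRAP*-/- mouse of pair 1 was the highest of its genotype for 30 of 42 genes, among them 19 of the 22 of coagulation and fibrinolysis. Its ratio to its littermate was over 1 for genes such as F2 (1.09), Fga (1.105) and Fgg (1.121), while in pair 3 these ratios were 0.983, 0.964 and 0.927. By pair, 5 of the 60 member probe sets were at least 1.5-fold lower in pair 1 (those of C2, C6, C8b and C9), 6 in pair 2 (these genes and F11) and 0 in pair 3, while 1 was at least 1.5-fold higher in each pair (a dimmer probe set of Masp1 in pair 1, another of Masp1 in pair 2 and a dimmer probe set of Tfpi in pair 3). Over all probe sets tested, of which many are dimmer than the members, 13.4%, 12.7% and 12.3% were lower and 12.4%, 11.9% and 10.8% higher by this limit in pairs 1, 2 and 3. Without pair 3 the test called 4 of 42 genes lower, C2, C6, C8b and C9, and without pair 1 it called 2, C6 and C9. The calls over all genes in either direction rose as well, from 217 of 13217 to 443 without pair 3. Over the fits that left out 1 pair they ran from 212 to 443. The rise among the members was therefore not particular to them. Over 11 genes with several probe sets, 6 had log2 fold changes of both signs.

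**Figure D5:**
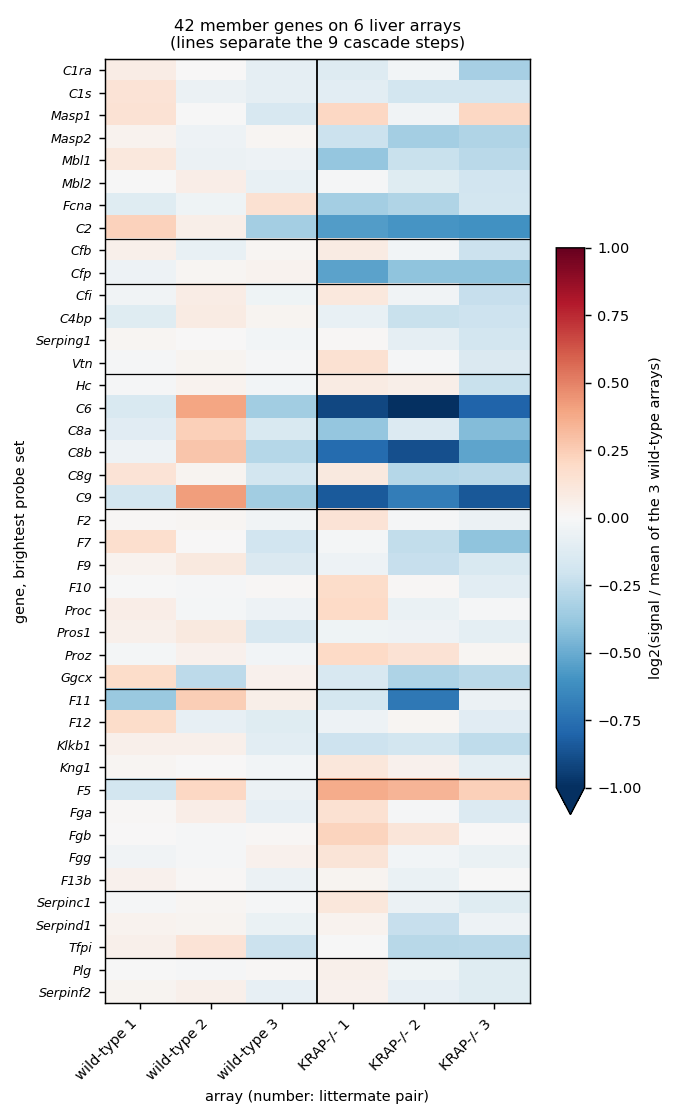
Colour gives log2 of the signal over the mean of the 3 wild-type arrays, for 42 genes (rows, brightest probe set, in 9 cascade steps) on 6 arrays (columns, numbered by littermate pair). The rows of C2, C6, C8b and C9 are blue on all 3 *KRAP*-/- arrays, F5 is red there, and most rows of coagulation are pale, with the *KRAP*-/- array of pair 1 slightly redder than the other 2.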

How the data were processed

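Total RNA from 6 livers was hybridized by the authors to the Affymetrix Mouse Genome 430 2.0 array. What the authors deposited is the GCOS intensity of each probe set on a linear scale (software version not given in the sources used here), without the median scaling named in the methods, since the array medians differ. Signals were therefore set to array median 1, 64 control probe sets were left out, and values were floored at 0.1 and taken as log2. For 28531 probe sets whose mean reached 0.5, limma 3.58.1 in R 4.3.3 was run with pairs of littermates as blocks, an intensity trend and Benjamini-Hochberg adjustment over all of them, threshold 0.05. The fit was tested on simulated data drawn over all probe sets tested, of which many are dimmer than the members. It called 15 of 50 probe sets changed 1.5-fold and 22 of 50 changed 2-fold. It also called 9 of 28331 left unchanged. A member that did not pass may therefore still differ. The 1.5-fold rule is that of the methods.

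A gene was read at its brightest probe set. Probe sets were named from the platform annotation, in which 34958 have 1 gene and 932 several. Members, lists and tests were chosen with earlier results of these data known. Values in all arrays are given for each member that passed, the member with the largest change in each step and the 2 other pathway genes with the largest change. Further genes were named after their values were seen. The design text of the series gives the pairs as littermates. Deviations from the genotype means correlated within pairs by 0.043, 0.0095 and −0.012. The p-values rest on how far the difference within a pair varied over the 3 littermate pairs. In limma that variation is drawn toward the level of probe sets of like brightness. The number of arrays limits the precision. Figures were drawn with Python 3.11.15 and matplotlib 3.10.9. Alternatives were other scalings, floors, filters, moderation and probe set choices, no block and leaving out each pair.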

Additional observations from a re-analysis of the deposited data

How the results depend on the processing

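Under the 15 alternatives no member was called higher at the brightest probe set. The median of the members stayed below 0 but ran from −0.12 without pair 1 to −0.03 with division by the 75th percentile (−0.08 as reported), and its gap from the median of all genes ran from −0.05 to 0.03. The medians of the initiators and of the contact factors moved to −0.16 and −0.07 with the 75th percentile. Those of the vitamin K-dependent genes and of fibrinolysis turned to 0.04 and 0.01 there. This scaling shifts every member by the same amount. Leaving out each pair gave −0.25 to −0.17 for the initiators and −0.16 to −0.05 for the contact factors. With the mean over all probe sets of a gene the alternative pathway moved from −0.25 to −0.12. The medians of the coagulation inhibitors and of the step with F5 and fibrinogen also crossed 0, to 0.00 without pair 2 and to −0.01 without pair 1. The count of members called lower, 1 at the brightest probe sets and 1 over all member probe sets, became 3 and 3 with a pseudocount of 0.25 or without _x_at and _s_at probe sets, and 0 and 0 when dim probe sets were kept or without the intensity trend (11 and 5 genes lower at an unadjusted p under 0.05 from limma). Under the same 2 settings the count over all genes went from 217 to 0, and without pair 3 it was 443. The members called lower became 2 and 2 with no replicate block, where C6 and C8b passed and C9 did not. Leaving out each littermate pair gave 1 to 4 genes and 1 to 5 probe sets lower, 0 to 1 of the other pathway genes lower, and 0 to 4 member probe sets past 1.5-fold in all remaining pairs, the highest counts of members without pair 3. With quantile normalization 1 member probe set was higher, the dimmer of F5. Of 629 single-gene values under the alternatives 616 kept their direction or stayed without a call, 3 lost and 10 gained a call, and 0 turned a called direction; the 3 losses are those of C9. The log2 fold change of C9 ran from −0.88 to −0.58. Apart from the uniform shift with the 75th percentile, the cause of these changes was not tested. Probe sets that are dim, such as those of Tfpi, F13a1 and Cd46, limit what can be seen of these genes.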
